A study of Arabidopsis thaliana with 148 samples.

Results

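The samples described here are 6 libraries of ribosome-bound mRNA from Arabidopsis thaliana seedlings, 3 harvested at the end of 1 h at 37 °C and 3 kept at 22 °C, out of 148 libraries in the series. They were chosen by their labels: the recovery set, translating ribosome affinity purification (TRAP), 0 h after heat. All plants carried p35S:HF-RPL18, a transgene in which the constitutive viral 35S promoter drives an epitope-tagged ribosomal protein L18, so that ribosomes and the polyadenylated mRNA on them can be pulled down with the tag. The seedlings were entrained at 22 °C by 12 h of light alternating with 12 h of darkness over 10 days, were in constant light from day 11, and were harvested on day 13 at ZT54 (54 h into constant light). The heat group was moved to 37 °C at ZT53 and the control group stayed at 22 °C. Total polyadenylated mRNA of the same 2 conditions (3 libraries each), TRAP libraries 1 h later (3 each) and TRAP libraries of a separate time course at ZT54 (3 each) served for comparison. The time course and the recovery set had different controls. The tag marks every cell in which the 35S promoter is active and separates no cell type. No label says that the replicates came from separate cultures, so the p-values rest on a spread between samples that may be technical.

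Plants answer heat within minutes through heat shock transcription factors (HSFs), which trimerise and bind heat shock elements, inverted repeats of GAA and TTC, in front of chaperone genes. The chaperones they induce fall into small heat shock proteins (sHSPs), which hold unfolding proteins, and the ATP-dependent HSP70, HSP90 and HSP100 families, which refold them or pull them out of aggregates. At the same time translation of most mRNAs is known to slow, and many mRNAs leave the ribosome, are stored in granules or are degraded. The mRNA bound to tagged ribosomes is therefore a closer reading of what is being translated than the mRNA pool itself.

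Depth in the 6 libraries ran from 7217202 to 8694120 counts, and log counts of libraries of one group correlated at 0.988 to 0.99. Expression is given as scaled CPM, a gene's counts relative to the library total, in which the totals were scaled by the trimmed mean of M-values (TMM), a method that sets the bulk of genes equal between libraries. The scaling factors were 1.02, 1.03 and 1.06 in the controls and 0.561, 0.554 and 0.585 in the heat libraries. A scaled log2 fold change therefore lies 0.87 above the log2 change in a gene's share of the library. A gene called higher by less than 0.87 took up a smaller share of the heat libraries than of the control libraries, so beside each list the number of genes called higher that gained in share is given. TRAP control libraries in doubt at later times (3 h replicate 1 and 6 h replicate 2) had no part in the shared estimate of spread.

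At the end of heat the 62 genes of the sHSP, HSP100/90/70 and cochaperone lists together made up 21.4%, 20.7% and 19.4% of all counts on tagged ribosomes. In the control libraries they made up 0.283%, 0.295% and 0.288%. After heat the sHSPs were the larger portion of these, with 14.9%, 14.1% and 13.4% of heat counts against 0.0177%, 0.0174% and 0.0159% of control counts. The groups lay far apart and the spread within each was small.

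Of 20782 genes tested with edgeR's quasi-likelihood test, 11988 changed at a Benjamini-Hochberg adjusted p below 0.05, which is 57.7% of the genes. Of these, 5906 (28.4% of genes tested) were higher and 6082 (29.3%) were lower. Every heat library lay above every control library in 6382 genes (30.7%) and below every control library in 6826 (32.8%). With so many genes called, a call on its own says little, and the size of the change separates the lists described here. Counts of list members called higher or lower are to be read against these 28.4% and 29.3%. Beyond 2-fold there were 2116 genes higher and 2689 lower, and beyond 4-fold 794 higher and 786 lower. Beyond 16-fold the higher genes outnumbered the lower ones, 222 against 99, and beyond 64-fold they did so by 86 to 21. On the unscaled shares, 3420 of the 5906 genes called higher took up a smaller share of the heat libraries and 2486 a larger one.

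**Figure D1:**
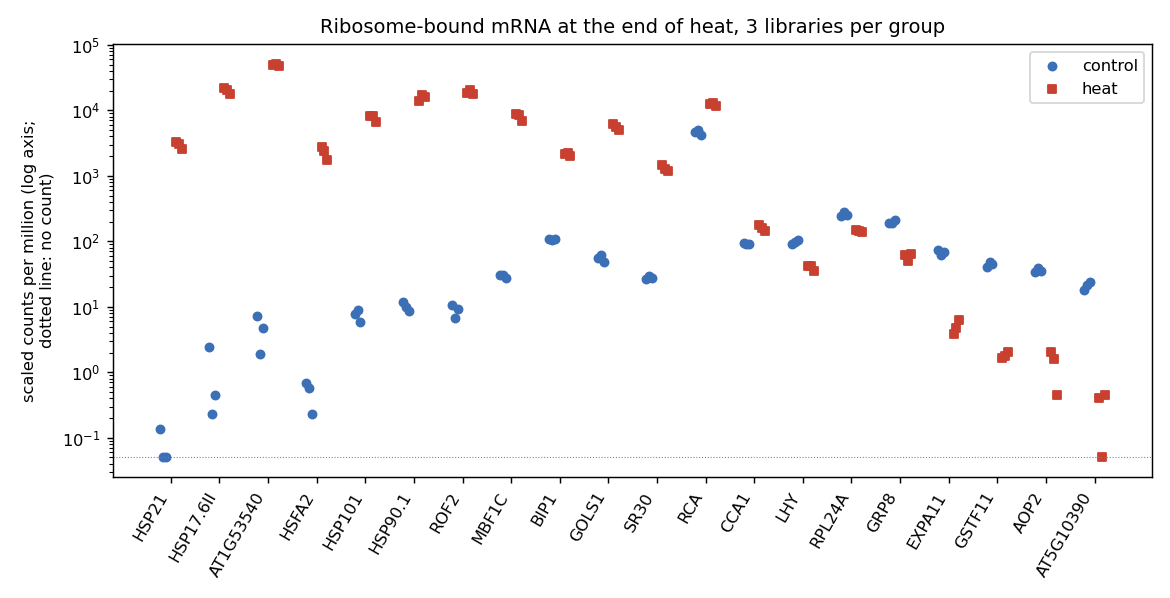
Scaled CPM (log axis) of 20 named genes in the 3 control libraries (blue circles) and the 3 heat libraries (red squares) at the end of heat. Each point is 1 library and the dotted line stands for no count. HSP21 lay at 0 to 0.135 in the controls and at 2609 to 3245 after heat, while GSTF11 lay at 40.5 to 47.8 in the controls and at 1.64 to 2.02 after heat.

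The highest fold changes belonged to sHSPs. Of the 19 sHSPs listed, 18 passed the filter on low counts and 17 rose, 16 of them with a gain in share, with a median log2 fold change of 11.84 against -0.06 over all genes tested. HSP21, the chloroplast sHSP, had 1 count in the first control library and none in the other controls, and 15823, 13590 and 11613 counts in the heat libraries. The ratio of its summed scaled counts was 7.43e+04, with a 95% counting interval from 1.33e+04 to 2.94e+06 (counting error only). HSP17.6II, a cytosolic class II sHSP, was at 2.44, 0.227 and 0.455 scaled CPM in the controls and at 21840, 20150 and 17930 after heat. Its log2 fold change was 14.31 ± 0.51 (approximate SE, n = 3 per group, adjusted p = 1.49e-12 by the quasi-likelihood test). Each SE given here was derived from the F statistic of that test. Where a group holds few counts, such an SE can be smaller than the counting error alone. HSP23.6-MITO, the mitochondrial form, went from 1.22, 0.908 and 0.455 to 15670, 14480 and 12410 scaled CPM, a log2 fold change of 14.01 ± 0.27. The strongly induced sHSPs thus included cytosolic, chloroplast and mitochondrial forms.

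The sHSP gene with the most counts was AT1G53540, annotated as an HSP20-like chaperone. It was at 7.31, 1.93 and 4.78 scaled CPM in the controls and at 50000, 51550 and 48060 after heat, a log2 fold change of 13.41 ± 0.76 with the adjusted p at 5.33e-10. HSP17.6A, ATHSP22.0, HSP17.4 and AT1G07400 were the other sHSPs among the 10 largest rises, with log2 fold changes from 13.11 to 13.68. The noncoding locus AT3G07365, also among the 10, lies on the strand opposite HSP17.4 and went from 1.76, 1.93 and 0.683 to 18850, 20290 and 19300 scaled CPM. No source used here gives the strand setting of the counting, and without it the reads of such pairs cannot be told apart. The remaining member of the 10 was APX2, a cytosolic ascorbate peroxidase that removes hydrogen peroxide. It was at 0.271, 0.114 and 0.228 scaled CPM in the controls and 1752, 1508 and 1369 after heat. Its log2 fold change of 12.79 ± 0.24 rests on few control counts.

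The sequences just upstream of a few of these genes are shown because they hold, or lack, the element that HSFs bind. Each is the 250 bases before the gene start in RefSeq's annotation of TAIR10.1, written 5′ to 3′ on the gene's strand, with matches to a heat shock element in capitals. The element was searched for on both strands as 2 units (GAANNTTC or TTCNNGAA) and as 3 units, GAA, TTC and GAA with NN between neighbours, so each 3-unit match also holds both 2-unit matches. The windows are chr2:11135374-11135623 (plus strand) for HSFA2, chr1:19980049-19980298 (plus) for AT1G53540, chr3:16984868-16985117 (minus) for HSP17.4, chr3:2955906-2956155 (plus) for APX2 and chr1:27940370-27940619 (minus) for HSP101.
HSFA2: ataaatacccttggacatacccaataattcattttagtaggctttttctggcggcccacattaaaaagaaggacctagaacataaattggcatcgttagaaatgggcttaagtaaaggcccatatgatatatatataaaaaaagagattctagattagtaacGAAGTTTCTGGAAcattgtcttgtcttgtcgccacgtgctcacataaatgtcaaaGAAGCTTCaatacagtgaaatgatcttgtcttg
AT1G53540: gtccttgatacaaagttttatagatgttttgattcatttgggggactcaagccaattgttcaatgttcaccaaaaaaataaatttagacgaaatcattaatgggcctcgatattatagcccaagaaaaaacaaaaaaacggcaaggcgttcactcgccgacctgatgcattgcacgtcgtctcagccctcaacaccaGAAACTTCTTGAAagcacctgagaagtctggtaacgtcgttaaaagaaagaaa
HSP17.4: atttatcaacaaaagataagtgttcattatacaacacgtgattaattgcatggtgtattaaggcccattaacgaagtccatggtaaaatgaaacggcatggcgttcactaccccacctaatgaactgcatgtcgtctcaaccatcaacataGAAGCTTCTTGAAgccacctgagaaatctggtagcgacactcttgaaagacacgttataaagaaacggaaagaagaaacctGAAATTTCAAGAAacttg
APX2: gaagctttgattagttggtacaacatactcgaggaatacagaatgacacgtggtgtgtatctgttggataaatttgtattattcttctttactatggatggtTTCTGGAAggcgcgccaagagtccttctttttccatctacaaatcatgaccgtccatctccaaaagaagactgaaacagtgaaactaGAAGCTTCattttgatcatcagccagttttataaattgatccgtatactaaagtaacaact
HSP101: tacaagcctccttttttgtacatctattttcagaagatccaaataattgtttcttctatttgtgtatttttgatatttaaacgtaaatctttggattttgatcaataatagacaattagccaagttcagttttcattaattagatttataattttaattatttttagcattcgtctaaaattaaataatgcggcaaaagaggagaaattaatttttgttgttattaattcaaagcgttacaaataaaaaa

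HSFA2 and AT1G53540 each held 1 such 3-unit match, HSP17.4 held 2, APX2 held 2-unit matches alone and HSP101 held none in this window. Across the genome 0.386% of 27443 promoters held a 3-unit match and 16.1% a 2-unit match. The share rose with the size of the heat effect. Among genes tested that had a promoter, a 3-unit match was found in 6 of 76 (7.89%) with a log2 fold change above 6, in 3.25% of those between 4 and 6, in 12 of 525 (2.29%) between 2 and 4 and in 12 of 1236 (0.971%) between 1 and 2. It was found in 14 of 3655 (0.383%) of the other genes called higher, in 18 of 7983 (0.225%) of the genes not called and in 7 of 2511 (0.279%) of those below -1. The 2-unit match ran in parallel, from 30.3% above 6 to 15.5% among genes not called. The chaperone lists differed. Of 22 HSP100/90/70 promoters, 0 held a 3-unit match and 1 (4.55%) a 2-unit match, against 15.9% of genes tested for the latter. Of 19 sHSP promoters, 2 held a 3-unit match and 7 (36.8%) a 2-unit match. Among the 10 highest genes, 5 of 9 promoters held a 2-unit match, while HSP17.6II, HSP23.6-MITO, ATHSP22.0 and AT1G07400 held neither. Most genes above 6 held no 3-unit match in these 250 bases, which says only that these letters were not found there.

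**Figure D2:**
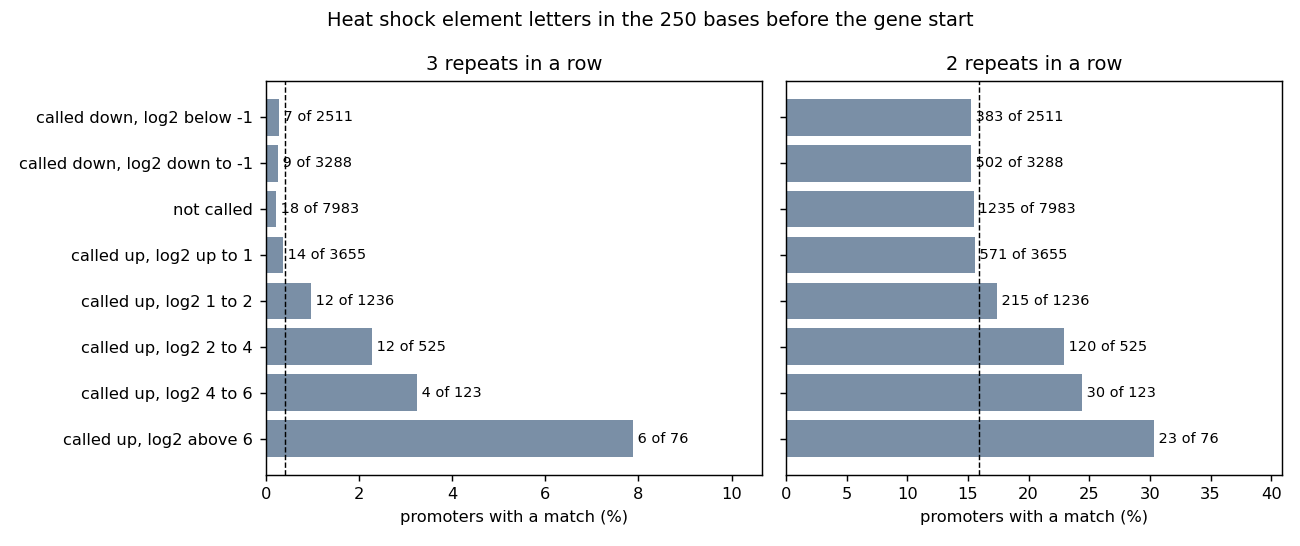
Share of promoters (250 bases before the gene start) with a heat shock element, by the log2 fold change of the gene on ribosomes at the end of heat. The 3-unit share ran from 7.89% of 76 genes above a log2 fold change of 6 to 0.225% of 7983 genes not called.

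The HSFs themselves moved unevenly. Of 21 listed, 20 were tested, 12 rose and 1 fell, with a median log2 fold change of 0.87, and 10 of the 12 also took a larger share of the library. HSFA2, the factor that sustains the heat response, was at 0.677, 0.568 and 0.228 scaled CPM in the controls and at 2754, 2412 and 1727 after heat, a log2 fold change of 12.17 ± 0.26 (adjusted p = 2.91e-22). HSFA7B had 3 counts over the controls and 2717 over the heat libraries, a ratio of 1641 (95% counting interval 561 to 7961). HSFA7A went from 8.8, 5 and 8.19 scaled CPM to 475, 389 and 267. HSFB1, a class B factor known as a repressor that limits the response, was already at 96.9, 101 and 88.5 in the controls and reached 2287, 2243 and 1895. HSFA5 was the one that fell, by 0.40 on the log2 scale, and it lost the call under DESeq2.

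Other rapidly induced regulators rose with them: 11 of 14 listed stress transcription factors and cofactors rose, all 11 with a gain in share, 1 fell, and the median log2 fold change was 2.51. MBF1C, a transcriptional coactivator needed for basal thermotolerance, went from 30.7, 30.7 and 27.6 scaled CPM to 8653, 8462 and 6878 (log2 fold change 8.07 ± 0.14), and the noncoding locus AT3G04685 lies on its opposite strand. DREB2A, an activator of drought and heat genes, went from 4.6, 5.22 and 5.23 to 196, 190 and 149, a log2 fold change of 5.14 ± 0.15. The zinc finger genes ZAT7 and ZAT12 rose by 5.75 ± 0.50 and 4.57 ± 0.43 on the log2 scale. WRKY53, a regulator of senescence and defence, went the other way, from 24.5, 23.4 and 25.6 to 3.49, 4.71 and 5.39 scaled CPM.

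All 22 listed HSP100, HSP90 and HSP70 genes rose, with a median log2 fold change of 4.92. The heat-inducible HSP90.1 was at 11.8, 9.99 and 8.65 scaled CPM in the controls and at 13790, 16910 and 15860 after heat, a log2 fold change of 10.58 ± 0.20 with an adjusted p of 4.16e-26. HSP101, the disaggregase required for acquired thermotolerance, went from 7.85, 9.09 and 5.80 to 8276, 8293 and 6609, a log2 fold change of 9.99 ± 0.19. Hsp70b and HSP70T-2 rose by 9.79 ± 0.20 and 9.13 ± 0.17. The smallest change in this list was 0.97, which still exceeds the 0.87 that separates a larger from a smaller share of the library.

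Of 21 cochaperones and chaperonins, 19 rose and 1 fell, with a median log2 fold change of 3.90, and 16 of the 19 also gained in share. ROF2, an FKBP-type peptidyl-prolyl isomerase that binds HSP90, went from 10.7, 6.81 and 9.33 scaled CPM to 18370, 20600 and 17560. HOP3, which links HSP70 to HSP90, went from 7.18, 5.79 and 5.92 to 6455, 7050 and 5920. HSA32, needed for the memory of acquired thermotolerance, rose by 8.84 ± 0.15 and FES1A, an HSP70 nucleotide exchange factor, by 8.30 ± 0.18. AT3G03773 fell by 0.51, a call that was lost without the first heat library.

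Folding genes of the endoplasmic reticulum followed at a lower level: 20 of 22 rose, 18 with a gain in share, and none fell, with a median log2 fold change of 2.07. TIN1, a small protein of the unfolded protein response, went from 0.542, 0.341 and 0.569 scaled CPM to 225, 223 and 184 (log2 fold change 8.73 ± 0.18). BIP1, an abundant HSP70 of this compartment, went from 108, 104 and 110 to 2155, 2267 and 2011, a log2 fold change of 4.32 ± 0.11. The HSP40 gene ATERDJ3A rose by 8.43 ± 0.19. Of the 22 promoters in this list, 13.6% held the endoplasmic reticulum stress element ERSE against 0.392% of the promoters of all genes tested. The G-box CACGTG was held by 31.8% against 7.6%, which is not particular to this list. It was present in 33.3% of the clock promoters, in 42.9% of the 7 galactinol and raffinose synthase promoters and in 5.26% of the sHSP promoters.

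**Figure D3:**
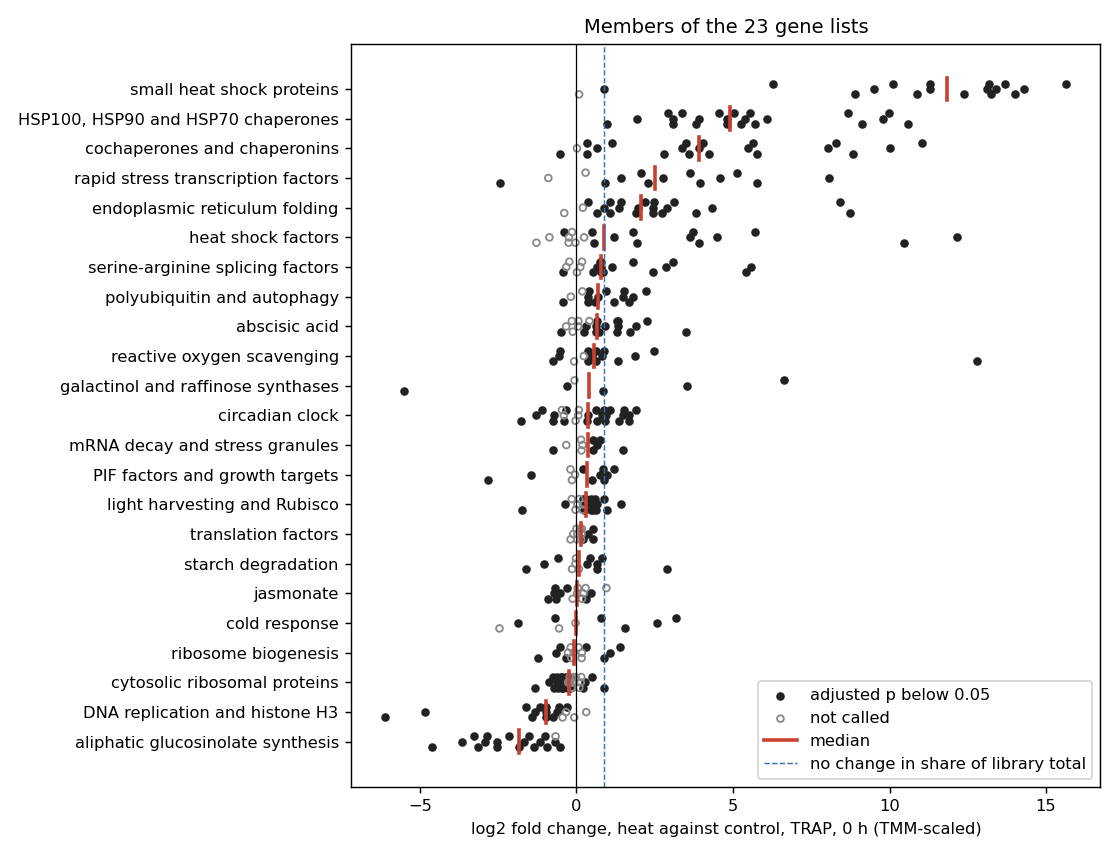
Log2 fold change of each tested member (points) and the list median (bars) for the 23 gene lists, heat against control on ribosomes at the end of heat. The dashed line at 0.87 marks no change in the share of the library. The median ran from 11.84 for the sHSPs to -1.84 for aliphatic glucosinolate synthesis.

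Oxygen scavenging genes moved in both directions. Of 16 tested, 11 rose and 3 fell, and 5 of the 11 also gained in share. Beside APX2, the cytosolic APX1 went from 350, 382 and 355 scaled CPM to 1970, 2037 and 1995, a log2 fold change of 2.47 ± 0.10. The peroxisomal catalase CAT2 rose by 1.86 ± 0.11 and the iron superoxide dismutase FSD1 by 1.33 ± 0.12. The 3 genes that fell were the copper-zinc superoxide dismutases CSD1 and CSD2 and their copper chaperone CCS, by 0.55, 0.74 and 0.54 on the log2 scale.

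Sugars and hormones that protect against drought and cold showed a mixed picture. GOLS1, whose product makes galactinol for raffinose sugars, went from 56.2, 62.6 and 48.4 scaled CPM to 6083, 5646 and 4960, a log2 fold change of 6.64 ± 0.14 with the adjusted p at 1.02e-32. GOLS2 rose by 3.55 ± 0.12, while the cold-inducible GOLS3 had 20 counts over the controls and none over the heat libraries, at least 3.68-fold lower against a floor of 3 counts over the group. Over the whole list of galactinol and raffinose synthases, 3 of 6 tested rose, 2 with a gain in share, and 2 fell, or 1 fell under DESeq2. The cold list divided in the same way: the dehydrins COR47 and ERD10 rose, COR47 from 748, 623 and 623 to 5496, 6294 and 6403, while the cold regulator CBF3 fell by 1.88 ± 0.46 and COR15B by 0.69 ± 0.28, so that 4 of 9 rose, 3 with a gain in share, and 2 fell, or 1 fell with scaling by relative log expression.

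Abscisic acid genes that rose included NCED3 of the synthetic side and CYP707A3 of the degrading side. Of 22 abscisic acid genes tested, 15 rose and 1 fell, and 9 of the 15 also gained in share. The summed level of the list was lower after heat, 937 to 1032 unscaled CPM against 1131 to 1272. Its median log2 change in share was -0.23, against -0.93 over all genes tested. NCED3, the rate-limiting step of synthesis, went from 7.04, 5.11 and 6.71 scaled CPM to 19.9, 24.9 and 17.1 (log2 fold change 1.72 ± 0.18). CYP707A3, which inactivates the hormone, went from 0.812, 0.681 and 0.683 to 10.1, 10.5 and 4.27 (3.49 ± 0.40). Of 15 jasmonate genes tested 6 were lower and 2 higher without a gain in share, or 1 higher with the doubted libraries kept. OPR3, LOX2 and AOC1, enzymes of jasmonate synthesis, fell by 0.92, 0.64 and 0.68, and the repressor JAZ9 was higher by 0.46 ± 0.10 on the scaled measure, which is a smaller share of the library.

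Of 27 clock genes tested, 15 rose, 7 fell and 5 were not called, and 10 of the 15 also gained in share. The morning genes RVE2, RVE1 and PRR9 had the largest rises: RVE2 went from 22.9, 24.1 and 24.2 scaled CPM to 103, 87.8 and 77.5 (log2 fold change 1.92 ± 0.12). The 2 paralogous morning repressors moved apart. CCA1 was at 94.64, 90.05 and 90.67 in the controls and at 180, 159 and 146 after heat, 0.82 ± 0.09 higher on the scaled measure but without a gain in share, since 0.82 lies below 0.87. LHY went from 89.9, 96.1 and 103 to 42.2, 41.2 and 35.7, and so fell by 1.28 ± 0.12. The RNA-binding proteins GRP8 and GRP7, outputs of the clock, fell by 1.75 and 0.70, and ELF4 and TOC1 of the evening by 0.74 and 0.41. The evening element AAAATATCT was present in 25.9% of the clock promoters against 2.49% of those of all genes tested.

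Phytochrome-interacting factors (PIFs), which drive growth in warmth and shade, and their targets also divided: 7 of 12 rose and 2 fell, with 3 of the 7 gaining in share. PIF7 went from 43.1, 47.7 and 45.9 scaled CPM to 99.5, 110 and 106, and PIF4 from 146, 130 and 139 to 293, 278 and 254. Their targets IAA29 and PIL1 fell, IAA29 by 1.44 ± 0.39, and PIL1 from 28 counts over the controls to 2 over the heat libraries, a ratio of 7.73 with a counting interval from 1.95 to 66.9. One of these lower calls was lost when only the 2 groups compared were used in the model.

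Light-harvesting and Rubisco genes were called higher in 15 of 23 and lower in 2, but just 2 of the 15 gained in share, and 11 to 16 were called higher over the alternatives. The list as a whole took a smaller share of the library after heat, 83930 to 92820 unscaled CPM against 115400 to 120800. Its median log2 change in share was -0.58, against -0.93 over all genes tested. RCA, the Rubisco activase, whose protein is known to be heat labile, went from 4725, 5021 and 4227 scaled CPM to 12580, 12920 and 11580 (log2 fold change 1.41 ± 0.09). LHCB2.3, an antenna protein of photosystem II, went from 1739, 1662 and 1868 to 514, 524 and 525, and its close paralogue LHCB2.2 fell by 0.36 ± 0.10. Reads shared between these paralogues could have been split between them in counting. Of 13 starch degradation genes tested, 6 rose, of which 1 gained in share, and 3 fell. The gene with the gain was BAM1, a chloroplast beta-amylase, at 48.7, 56.9 and 48.4 in the controls and 375, 413 and 349 after heat.

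The lists with falls alone were aliphatic glucosinolate synthesis and DNA replication. Of 19 glucosinolate genes, whose products make the sulphur defence compounds of Brassicaceae, 18 fell and none rose, with a median log2 fold change of -1.84. GSTF11, a glutathione transferase, went from 40.5, 47.8 and 44.7 scaled CPM to 1.64, 1.79 and 2.02 and overlaps NAC045 on the opposite strand, which fell as well. BAT5, the transporter that brings keto acids into the chloroplast, fell by 3.14 ± 0.24. AOP2, a glucosinolate side-chain enzyme, and IPMI1, an isopropylmalate isomerase, are not on the list but were among the 10 lowest genes. AOP2 went from 33.4, 38.5 and 35.3 to 2.05, 1.57 and 0.449, a log2 fold change of -4.68 ± 0.27 (adjusted p = 1.3e-16), and IPMI1 from 70.5, 88.2 and 78.4 to 3.90, 3.58 and 3.37.

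Of 17 genes of DNA replication and histone H3, 13 fell and none rose, with a median log2 fold change of -0.96. The histone H3 gene AT5G10390 had 17.87, 21.58 and 23.55 scaled CPM in the controls and 0.41, 0 and 0.449 after heat. Its log2 fold change of -6.10 ± 0.30 rests on 4 counts over the heat libraries. RPA70D, a subunit of the single-strand binding complex, had 167 counts over the controls and 3 over the heat libraries, a ratio of 30.7 (counting interval 10.3 to 150.5). The cyclin CYCA1;1 was among the 10 lowest genes, at 5.14, 7.15 and 7.39 against 0.205, 0.224 and 0.674. The lowest of these 10 was AT5G66230, annotated as a chalcone-flavanone isomerase family protein, which had 319 counts over the controls and 1 over the heat libraries, a ratio of 176 with a counting interval from 31.4 to 6977. AT3G51280, a tetratricopeptide repeat protein, had 213 against 3 counts.

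The translation machinery moved little beside these. Of 37 cytosolic ribosomal proteins, 21 fell and 4 were called higher (14 to 24 and 1 to 4 over the alternatives, with the 1 where the doubted libraries were kept), 1 of the 4 with a gain in share, with a median log2 fold change of -0.25. RPL24A went from 247, 281 and 253 scaled CPM to 148, 143 and 139, a log2 fold change of -0.86 ± 0.10. RPL18, the protein that carries the tag in the transgene, was at 6428, 7223 and 5605 in the controls and 9835, 7878 and 9263 after heat, 0.49 ± 0.09 higher on the scaled measure and lower as a share of the library. Its reads can come from the transgene as well as from the plant's own gene. Its paralogue AT5G27850 fell by 0.44 ± 0.09. Of 15 ribosome biogenesis genes 4 rose, 3 with a gain in share, and 4 fell, among them PES higher by 1.4 ± 0.10 and the fibrillarin FIB2 lower by 1.24 ± 0.19 on the log2 scale. Translation factors had 4 of 13 higher, none of them with a gain in share, and no gene lower. Over all genes tested 28.4% were called higher and 29.3% lower. The counts of ribosome biogenesis in both directions, and the higher calls of translation factors, lie near that background.

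Genes of mRNA decay and stress granules had 5 of 10 called higher, 1 of them with a gain in share, and 1 lower. LARP1B, a La-related RNA-binding protein, rose from 17.1, 18.3 and 21.8 scaled CPM to 50.9, 55.6 and 55.3, and the deadenylase CAF1A fell by 0.74 ± 0.30. Splicing factors of the serine-arginine family rose in 14 of 20, 7 of them with a gain in share, and fell in 1, RS40, by 0.42. SR30 went from 26.8, 29.5 and 27.4 to 1487, 1291 and 1194, a log2 fold change of 5.57 ± 0.11 (adjusted p = 1.66e-34), and SR45A from 22.3, 29.1 and 24.0 to 1234, 1052 and 932. Polyubiquitin and autophagy genes rose in 12 of 15, 7 with a gain in share, with UBQ14 at 195, 212 and 201 against 748, 653 and 543. ATG8H, a ubiquitin-like protein of the autophagosome, rose by 2.21 ± 0.18 and ATG8G fell by 0.44 ± 0.12.

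Markers of cell types moved with heat too. Of 7 root markers tested, 3 fell (RHD2, CASP1 and SCR), and the summed level of the root list was 2198 to 2349 unscaled CPM in the controls and 1011 to 1273 after heat. All 5 vascular markers were called higher, 1 with a gain in share, and 4 of 6 green tissue markers, also 1 with a gain in share. Their summed unscaled levels were lower after heat, 252.5 to 286.9 against 301.5 to 384.1 for the vascular list and 31120 to 33480 against 44220 to 45840 for the green list. Of 4 epidermal markers 2 were called higher, with no gain in share, and their list sum went from 368.6 to 403.5 down to 241.9 to 284.4. Of 4 guard cell markers KAT1 was called higher, without a gain in share, and MYB60 lower, with the sum going from 39.9 to 47.97 down to 24.96 to 25.8. A smaller share was not particular to the markers, since the median log2 change in share over all genes tested was -0.93. The list medians were -1.4 for root, -0.95 for guard cells, -0.62 for green tissue, -0.55 for epidermis and -0.16 for the vascular list. With the doubted libraries kept the higher calls were 3 vascular, 2 green and 1 epidermal. No marker lacked counts in all 6 libraries. In such bulk samples fewer cells of a type and less mRNA per cell cannot be told apart, and the part of these shifts in the gene lists was not tested.

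The heat effect on ribosomes was next set against the heat effect in total mRNA of the same time, by a test of the difference between the 2 effects. Of 21683 genes tested 742 differed (3.42%), 170 with a higher effect on ribosomes (0.784%) and 572 with a lower one (2.64%). The higher genes made up 22.9% of these calls, but 39.2% when libraries were scaled by relative log expression and 42.4% with DESeq2, and 39.4% with only the groups compared, so the balance of directions depends on the scaling and on the libraries. Keeping the doubted later libraries left 426 of the 742 calls, 76 of them higher. TRAP and total libraries of one replicate number deviated together in the controls (correlations of 0.15 to 0.214) and in 2 of 3 heat pairs (0.233, 0.202 and -0.00652). A model that paired them by number, added after these correlations were seen, called 1562 genes, 578 of them higher on ribosomes, and kept 738 of the 742. Of the 742 genes, 226 changed in the same direction in both pools, 106 fell on ribosomes and rose in total mRNA, 3 rose on ribosomes and fell in total mRNA, 218 were called on ribosomes alone and 189 in total mRNA alone. Organelle transcripts made up 0.275% to 0.486% of the TRAP counts and 22.6% to 40.5% of the total counts. The 3 chaperone lists took up 11.6%, 10.5% and 8.21% of the total heat libraries, or 14.9% on average once organelle transcripts were left out, against 20.6% on ribosomes.

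**Figure D4:**
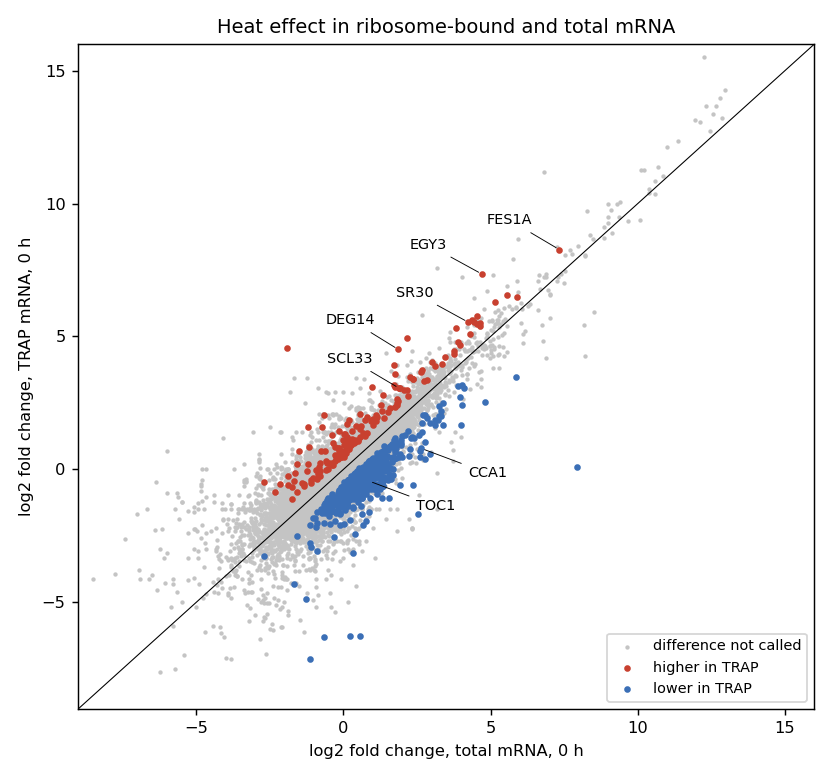
Log2 fold change at the end of heat in total mRNA (horizontal) and on ribosomes (vertical), 1 point per gene, with the line of equal change. Red points are the 170 genes with a higher heat effect on ribosomes and blue points the 572 with a lower one. CCA1 lies below the line and EGY3 and DEG14 above it.

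The clock list, with 27 genes tested, had 2 lower calls and no higher one, or 6 lower and 2 higher in the model paired by number. CCA1 in total mRNA went from 58.6, 56.5 and 52.1 scaled CPM to 340, 358 and 353, a log2 fold change of 2.65, while on ribosomes it rose by 0.79 in the joint model. The difference was -1.86 with an adjusted p of 9.9e-09 by edgeR's quasi-likelihood test. TOC1 went up in total mRNA from 15.2, 17.5 and 14.9 to 30.4, 24.9 and 32.1 and down on ribosomes, a difference of -1.31 (adjusted p = 6.3e-06). LHY, by contrast, went from 43.9, 39.0 and 43.8 to 22.24, 26.46 and 22.76 in total mRNA, the direction it took on ribosomes.

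Of 21 cochaperones and chaperonins 6 had a higher heat effect on ribosomes: SGT1A by 1.2, FES1A by 0.94 (adjusted p = 0.040), CPN60A by 0.75, HSP60 by 0.93, CPN20 by 0.55 and CPN10 by 0.75, with 2 called when the doubted libraries were kept and 10 in the paired model. CPN60A, HSP60, CPN20 and CPN10 are chaperonins of the chloroplast and the mitochondrion. Of 22 HSP100/90/70 genes 3 were called, or 10 higher and 1 lower in the paired model: the chloroplast HSP90.5 had a difference of 0.89, AT1G79930 of the HSP70 family (HSP91 in RefSeq) 0.90, and its relative AT1G11660 -1.01. Of 20 splicing factors 4 had a higher effect, 2 to 7 over the alternatives: SR30 differed by 1.3 (adjusted p = 7.1e-05) and SCL33 by 1.16 (adjusted p = 2.6e-06), and SR45A and RS2Z32 by 0.73 and 0.60. SR30 in total mRNA went from 68.2, 62.6 and 60.5 scaled CPM to 1332, 1294 and 989, and on ribosomes from 26.8 to 29.5 up to 1194 to 1487. Total levels were scaled in the joint model and ribosome levels in the model of TRAP libraries alone. Levels are therefore not compared between the pools.

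The 19 sHSPs had no called difference between the pools, with a median difference of 0.82 and approximate standard errors from 0.185 to 3.62 (median 0.739). In the model paired by number, where the median standard error was 0.32, 5 of them had a higher heat effect on ribosomes and 1 a lower one, and with only the groups compared 3 of 18 had a higher one. Among the 5 highest differences were 2 genes of protease-like proteins. EGY3, of the EGY family of chloroplast membrane proteins, went from 10.6, 9.88 and 11.2 scaled CPM to 1937, 1856 and 1465 on ribosomes. In total mRNA, scaled in the joint model, EGY3 went from 33.7, 36.0 and 31.3 to 955, 907 and 774. The difference between its heat effects was 2.65. Several annotated loci overlap EGY3. DEG14, a trypsin-family protein with a PDZ domain, rose by 4.52 on ribosomes and 1.86 in total mRNA, a difference of 2.66 with the adjusted p at 2.48e-08. Of the abscisic acid genes, ABI1, ABI2 and HAB1, protein phosphatases that hold its signalling off, had differences of -0.52, -0.72 and -0.69, and CYP707A1, which degrades the hormone, 0.84. In this list 3 of 23 were lower and 1 higher, with 1 lower and no higher call left when the doubted libraries were kept and 5 lower and 2 higher in the paired model.

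The heat effect at the end of heat was also set against that in TRAP libraries taken 1 h later. Of 20782 genes, 10165 differed between the times (48.9%), 5199 with a higher effect at the end of heat (25%) and 4966 with a lower one (23.9%). A higher heat effect at the end of heat was called for 16 of 18 sHSPs, 21 of 22 HSP100/90/70 genes, 19 of 21 cochaperones and 20 of 22 endoplasmic reticulum genes. At 1 h the sHSPs had the highest median of the 23 lists. The sHSP median went from 11.84 to 7.41, with 17 members still higher at 1 h. The HSP100/90/70 median went from 4.92 to 0.91, that of the cochaperones from 3.90 to 0.44 and that of the endoplasmic reticulum genes from 2.07 to 0.46. Part of each fall is scaling, since the shift was 0.87 at the end of heat and -0.12 at 1 h. As a share of the library the medians went from 11 to 7.53 for the sHSPs and from 4.05 to 1.03 for HSP100/90/70. For the cochaperones they went from 3.03 to 0.56 and for the endoplasmic reticulum genes from 1.2 to 0.58. Over all genes tested the median share change went from -0.93 to 0.13.

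Individual genes differed in how far they returned. HSFA2 was at 16, 10.9 and 15.5 scaled CPM 1 h after heat, from 2754, 2412 and 1727 at its end, and its controls at 1 h were at 0.114, 0.456 and 0.191. MBF1C was at 48.6, 42.4 and 40.6 against controls of 28.0, 28.7 and 34.1. HSP101 was at 68.5, 42.3 and 59.9 against controls of 9.65, 7.41 and 7.82. AT1G53540 was still at 6664, 5902 and 5009. HSFA7A fell below its controls, with 1.59, 0.668 and 1.85 against 9.31, 7.52 and 12.0, and its difference between the times was 8.37.

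**Figure D5:**
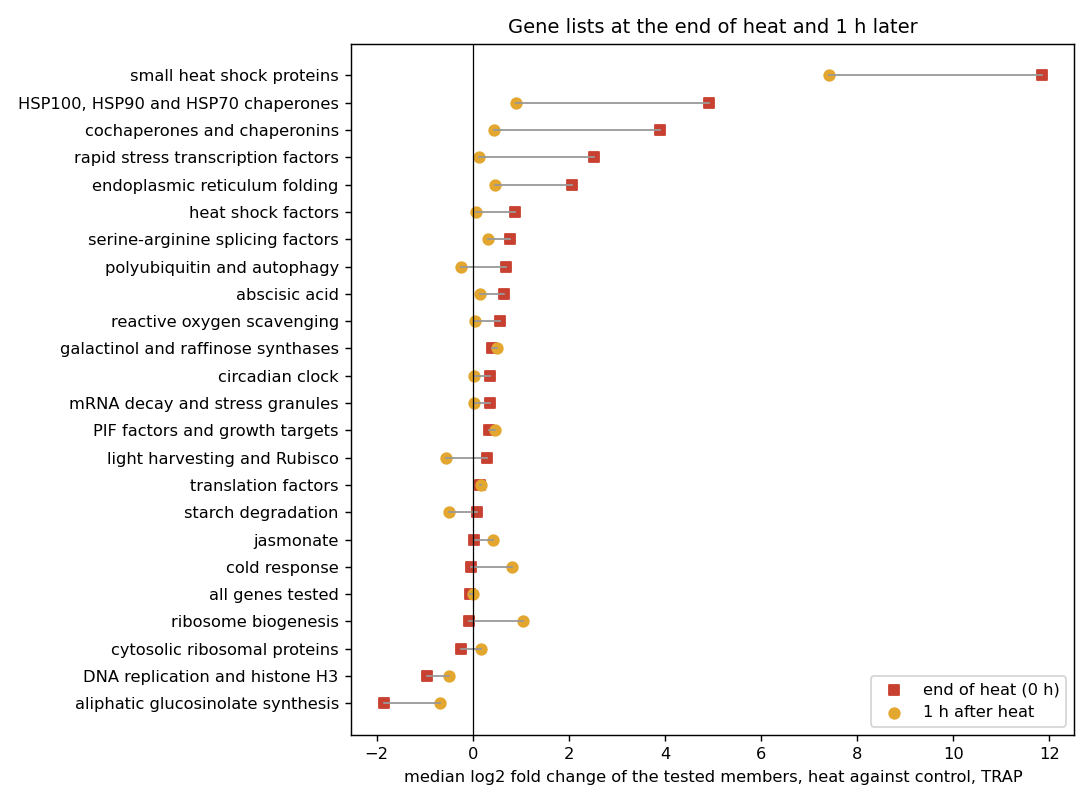
Median log2 fold change, heat against control on ribosomes, of the tested members of each list at the end of heat (red squares) and 1 h later (yellow circles), joined by a line. The sHSP median went from 11.84 to 7.41, and that of ribosome biogenesis from -0.09 to 1.05.

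At 1 h, 3701 of the 20782 genes tested were called higher and 3941 (19%) lower. Ribosome biogenesis went from a median of -0.09 to 1.05, with all 15 members higher at 1 h, and 12 of them had a lower heat effect at the end of heat than at 1 h. Of 37 ribosomal proteins 15 were higher and none was lower at 1 h. A lower effect at the end of heat was called for 27 of the 37, or 13 with the doubted libraries kept. Glucosinolate synthesis went from -1.84 to -0.68, with 13 genes still lower and 2 higher, and DNA replication from -0.96 to -0.50. Light-harvesting and Rubisco genes went from 0.29 to -0.56, with 22 of 23 lower at 1 h, while as a share of the library their median change went from -0.58 to -0.44. Starch degradation went from 0.08 to -0.50, with 10 of 13 lower, and as a share from -0.79 to -0.38. The median share change over all genes tested went from -0.93 to 0.13. Both lists thus lay above the median gene at the end of heat and below it at 1 h. EXPA11, a cell wall expansin, was at 3.90, 4.71 and 6.29 scaled CPM at the end of heat against 74.6, 60.9 and 67.8 in its controls, and at 112, 110 and 115 against 70.2, 84.1 and 76.1 an hour later.

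The same heat treatment at the same time was also sampled on ribosomes in the time course, with its own controls. Over 19806 genes the log2 fold changes of the 2 experiments correlated at 0.898, given as a description across genes that are not independent. Of the genes called here 80.5% were also called there, and of those called there 75.1% were called here, 9488 genes, of which 9365 had the same direction. The difference between the experiments was called for 1927 of 19960 genes (9.65%), 893 higher here (4.47%) and 1034 lower (5.18%). The scaling differed as well, with a shift of 1.15 in the time course against 0.87. The chaperone lists took up 25.0% to 27.3% of the time-course heat libraries.

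Ribosomal proteins made up 19 of the lower calls in this difference, of 37 tested, where 5.18% of all genes tested were lower. Other lists differed too. Of 22 HSP100/90/70 genes 7 were lower and 2 higher, and of 19 glucosinolate genes 8 were lower and 2 higher. Of 15 polyubiquitin and autophagy genes 5 were lower (2 to 6 over the alternatives) and 0 higher. The sHSPs had 1 called difference, although the median of their differences was 2.65. In the time course, control replicate 2 had an sHSP share of 0.154%, above the other controls. HSP17.6II, for example, was at 1.54, 72.8 and 5.23 scaled CPM in the time-course controls and at 19490, 18740 and 21600 after heat, levels that were scaled in a model of their own. The levels here were scaled in another model, so heat levels are not compared between the experiments. The second of the time-course controls stood above the other time-course controls. For HSFA2 too the second time-course control was the highest, with controls at 0.77, 22 and 1.53 scaled CPM. After heat in the time course HSFA2 was at 5799, 4552 and 5367. Its heat effect, which is relative to the controls of each experiment, was 2.91 ± 1.83 higher here, which was not called (adjusted p = 0.391). AT2G23110, a late embryogenesis abundant protein, had a difference of -2.88. In the model of both experiments its log2 fold change was 4.65 here and 7.52 in the time course. It had 46 counts over the controls and 652 over the heat libraries here, and 5 and 528 in the time course.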

How the data were processed

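Polyadenylated mRNA was sequenced after 12 PCR cycles, per the labels' protocols, which name no molecular identifiers. The authors deposited raw read counts per gene for 38194 genes, 48 libraries of the recovery set and 100 of the time course. Reads were handled with cutadapt, FastQC and HISAT2 2.2.0 on TAIR10, per the submitters' processing notes. No source used here gives the counting tool, annotation or strand setting. RefSeq's TAIR10.1 annotation gave symbols for 37751 IDs, overlaps and promoters. Depth in the recovery set was 3080248 to 8745785 counts.

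Groups came from the labels. Counts were fitted in R 4.3.3 with edgeR 4.0.16 (TMM scaling, filterByExpr with minimum counts of 10 and 15 in total, quasi-likelihood test, Benjamini-Hochberg adjustment over all genes tested, threshold 0.05), using all TRAP groups of the recovery set except the 2 doubted libraries. Contrasts of contrasts gave the 3 differences, the one against total mRNA in a joint model of 46 libraries and the one against the time course in a model of 12. Intervals for genes with 1 to 3 counts in a group are 95% and cover counting error only. Standard errors are approximate, the absolute log2 fold change over the square root of the test's F statistic. Replicates of a group differed by more than sampling noise (chi-square over degrees of freedom 2.74 to 9.89). The procedure was tested on simulated data in which few genes changed, balanced between the directions. That test therefore does not cover the scaling under a shift as large as the one here.

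The genes named are the 10 highest and 10 lowest called changes whose mean log2 CPM was 1 or more and groups that do not overlap, up to 4 called members of each list with the largest change, called members against their list's majority, the 5 highest and 5 lowest of each difference, and RPL18B, RPL18C, HSFA2, HSP101, CCA1, LHY and TOC1. Outside that rule, listed genes called in the comparison with total mRNA (SGT1A, CPN60A, HSP60, CPN20, CPN10, HSP90.5, AT1G79930, AT1G11660, RS2Z32, CYP707A1, ABI1, ABI2 and HAB1) were chosen after their values were seen. The members and the 23 gene lists (414 members) were chosen with earlier results of these data known. Alternatives were DESeq2 1.42.0, scaling by relative log expression, a minimum count of 1, keeping the doubted libraries, only the groups compared, a replicate block (also across TRAP and total, added after the correlations of same-numbered libraries were seen) and leaving out each replicate.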

Additional observations from a re-analysis of the deposited data

Results flagged for a closer look

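The heat effect on ribosomes at the end of heat differed, by edgeR's test of the difference itself, from that in total mRNA in 742 genes, from that 1 h later in 10165 and from that in the time course in 1927. All values below are differences of log2 fold changes, and groups of 3 were not tested for samples that stand apart.

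Against total mRNA the highest differences were 2.83 for ATMG01370, a locus of the mitochondrial genome, 2.79 for the snoRNA AT4G39361, 2.70 for RHS18, 2.66 for DEG14 and 2.65 for EGY3. ATMG01370 and RHS18 had 13 and 12 counts over the TRAP controls and did not pass the filter on low counts in the TRAP comparison. ATMG01370 had 23 counts over the heat TRAP libraries, and whether its reads came from tagged ribosomes was not tested. The lowest were -5.99 for ETC1, a trichome regulator with no count in the heat TRAP libraries (at least 13.8-fold lower than the 75 counts over its controls), -3.63 for the SAUR gene AT4G34800, -2.83 for AT1G23850, -2.51 for AT5G67610 and -2.50 for AT4G01270. The clock genes CCA1 and TOC1 had -1.86 and -1.31.

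Against 1 h after heat the highest were 8.37 for HSFA7A, 8.08 for the calcium-binding AT1G21550, 7.93 for the DnaJ-domain gene AT1G71000, 7.69 for the sHSP AT1G54050 and 7.65 for AT3G04685, which overlaps MBF1C. The lowest were -5.14 for AT5G66230, -5.07 for the histone gene AT5G10390, -4.42 for BARD1, -4.35 for RPA70D and -4.32 for EXPA11.

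Against the time course the highest were 2.69 for the F-box gene AT5G49610, 2.67 for AT3G16350, 2.37 for AT2G36970, 2.29 for AT5G14730 and 2.2 for PLDEPSILON. The lowest were -3.92 for AT5G66230, -2.88 for AT2G23110, -2.57 for AT4G27657, -2.34 for AT3G13310 and -2.28 for AT5G43420.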

How the results depend on the processing

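The 11988 calls of heat against control became 11951 with relative log expression scaling, 11207 with DESeq2, 12192 with a minimum count of 1, 10236 with the doubted libraries kept and 11764 with only the groups compared, and 10850 to 11457 leaving out 1 replicate. No gene called in both had changed sign in these settings. The 742 differences from total mRNA became 724, 757, 718, 426 and 947 in the same order, and 533 to 713 leaving out 1 replicate, and the 426 were all among the 742. The 10165 differences from 1 h became 7931 with the doubted libraries kept and 9267 to 9837 leaving out 1 replicate. The 1927 differences from the time course became 1631 with DESeq2 and 1334 to 2183 leaving out 1 replicate, and the share with a higher effect here went from 46.3% to 33.7% with DESeq2 and 39.3% with relative log expression scaling. Leaving out organelle genes moved the mean chaperone share of total mRNA to 14.9% after heat and 0.283% in the controls. AT5G49610, not called in heat against control at 0.02, came to -0.0085 with only the groups compared, and to -0.045, -0.042 and -0.25 without control 2, control 3 and heat 1, with a range of -0.25 to 0.18 over single replicates left out. Of 168 named genes, 17 lost the call with the doubted libraries kept, 4 with DESeq2 and 6 to 12 leaving out 1 replicate. Of the genes described, LOX2, LHCB2.2, RPL18, CAF1A and CASP1 lost it with the doubted libraries kept, HSFA5 and CAF1A with DESeq2, CSD1 with only the groups compared, COR15B with relative log expression scaling, a minimum count of 1 and the replicate block, and HSFA5, AT3G03773, COR15B, CAF1A and CASP1 without 1 replicate or another. Heat and control samples of one number did not deviate together (correlations of -0.127 to 0.002 in TRAP), so the numbers gave no pairing between them. TRAP and total libraries of one number correlated at 0.15 to 0.214 in the controls, each best with its own number, and at -0.00652 to 0.233 after heat. With the replicate block within each kind of RNA or experiment there were 11944, 700, 10040 and 1859 calls. A replicate block across TRAP and total, added after seeing the data, gave 1562 differences from total mRNA in place of 742. Depth limits genes with few control counts, whose folds have wide intervals.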
